A study of Mus musculus with 6 samples.

Results

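The genes described here encode 10 core transcription factors of the heart: Gata4, Gata6, Nkx2-5, Tbx5, Tbx20, Mef2a, Mef2c, Mef2d, Srf and the SRF cofactor Myocd. They were selected by gene name, with earlier results of these data known, and were represented by 15 of the 55681 probes on the array and by 10 of its 28909 gene names. Expression was measured in 3 sham and 3 tail-suspension samples of mouse heart. Tail-suspension is a procedure that lifts the hindlimbs off the floor by the tail and is used to simulate microgravity. All mice were male C57BL/6, and the labels list no transgene or drug. Suspension lasted 28 days, and sham mice were housed and fed alike without it. The labels give an age of 10 weeks at the start and also 11 weeks as the age of the animals, and these cannot both hold for a suspension of 28 days, so the age at sampling is unknown. Total RNA labelled with Cy3 was hybridised to 1-colour Agilent arrays, 1 array per sample.

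These proteins bind DNA next to the genes of the contractile apparatus, the ion channels and the natriuretic peptides, and many of them bind each other. GATA factors are zinc finger proteins, NKX2-5 is a homeodomain protein, TBX5 and TBX20 share the T-box, and the MEF2 proteins and SRF share the MADS box. Their combined action specifies the heart tube in the embryo and maintains the muscle gene programme in the adult.

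The 6 arrays shared 1 slide and 1 scan, and between 50.9% and 53.4% of the probes on each array were well above background by the scanner's own flag. All 15 probes of the 10 genes carried that flag on all 6 arrays. A level below is the log2 of the background-corrected intensity minus the 75th percentile of its array, and that percentile lay between 302 and 376 intensity units. Intensities are given before this scaling, so a fold change can differ from the ratio of the intensities beside it. The groups were compared with limma over 28032 tested probes with p-values adjusted by Benjamini-Hochberg and called under 0.05, and each gene is represented by its brightest tested probe. An exact two-sided permutation test of 3 arrays against 3 cannot give a p below 0.1. The labels number the samples as replicates and do not say whether each came from its own mouse, so the p-values measure the spread between these arrays, which may be technical.

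Of the 10 factor genes, Gata6 and Tbx5 were higher in tail-suspended mouse hearts, Gata4 was lower and the other 7 did not pass the threshold. Gata6 was 1.71-fold higher and Tbx5 1.48-fold higher, and sham hearts had 1.44 times the Gata4 level of tail-suspended hearts. Over all 17140 genes tested, 10.6% passed as higher and 10.5% as lower, 21.1% in all, so 2 higher and 1 lower of 10 are close to the background. The levels of the 2 groups did not overlap for Gata4, Gata6, Tbx5 and Mef2c, 4 of the 10 genes, with tail-suspension above in 2 and below in 2. Over all genes tested the groups were apart for 46.4%, with tail-suspension above for 22.2% and below for 24.2%. The median log2 fold change of the 10 genes was -0.12, and that of all genes tested was -0.01. Heart tissue was measured in bulk, so fewer cells of a type and less RNA per cell cannot be told apart.

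**Figure D1:**
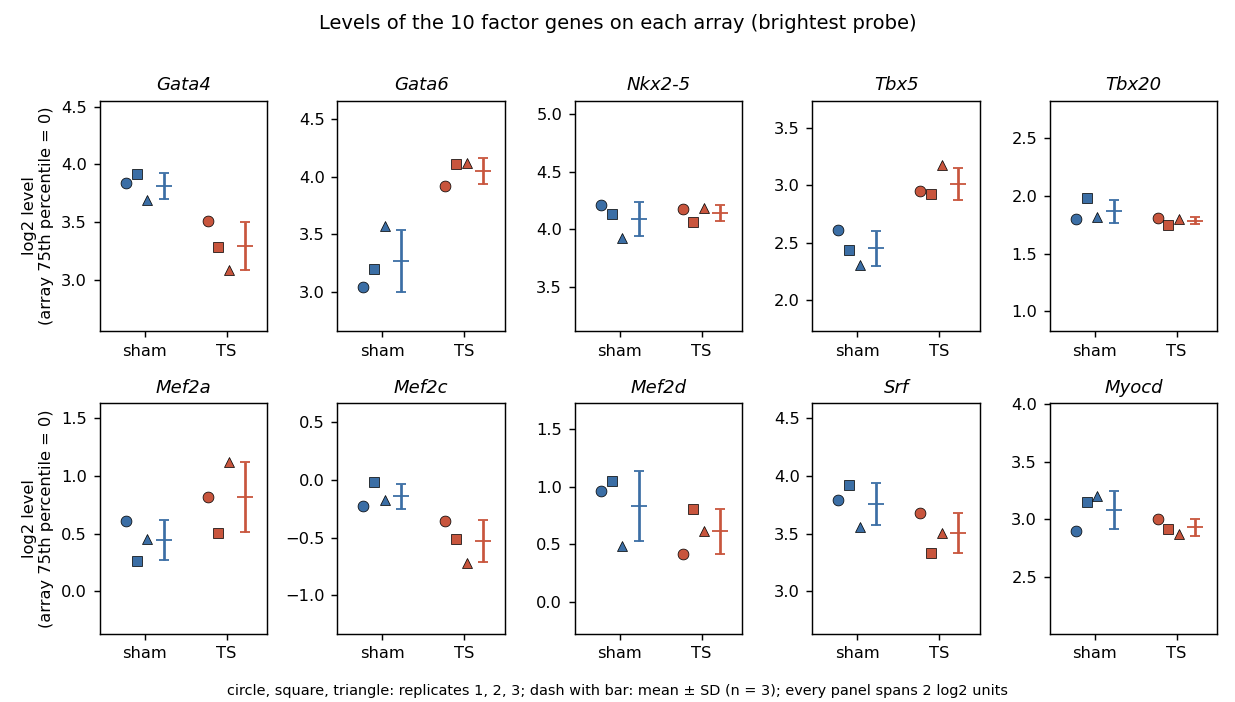
Level of each of the 10 factor genes on the 6 arrays, as log2 relative to the 75th percentile of the array (y axis), for sham and tail-suspension (TS) hearts; points are single arrays, and the dash with its bar is the mean ± SD of 3 arrays. The groups were apart for Gata4, Gata6, Tbx5 and Mef2c and overlapped in the other 6 panels.

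GATA4 and GATA6 are the zinc finger factors of adult heart muscle, and they bind the same core motif. The Gata4 probe lies on the minus strand at chr14:63817858-63817917 of mm9, the build of the deposited coordinates. Its first 30 bases are shown because the single fall among the 10 factors was read from this probe alone.
Gata4 probe A_55_P2028894: tagcttcgaaccaagattctgttgtaatca
Gata4 intensities were 4596, 4815 and 3905 in sham and 3873, 3655 and 3186 in tail-suspension. Every tail-suspension array was below every sham array. The level fell from 3.81 ± 0.11 (SD, n = 3) to 3.29 ± 0.21 (SD, n = 3), a log2 fold change of -0.52 (standard error 0.13, limma adjusted p = 0.0365). The exact permutation test gave p = 0.1, the smallest it can give.

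Gata6 moved in the opposite direction. Its only probe, A_51_P411917, is placed on the plus strand at chr18:11085039-11085097 of mm9. Gata6 intensities were 2650, 2940 and 3577 in sham and 5159, 6482 and 6508 in tail-suspension. The lowest tail-suspension array was well clear of the highest sham array. The level rose from 3.27 ± 0.27 (SD, n = 3) to 4.05 ± 0.11 (SD, n = 3), a log2 fold change of 0.78 (standard error 0.15, limma adjusted p = 0.0191). In size this change lay above that of 91.1% of the tested probes, and the Gata4 change above that of 81.3%.

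Measured within each array, the Gata6 level minus the Gata4 level was -0.79, -0.71 and -0.13 in sham and 0.41, 0.83 and 1.03 in tail-suspension. The mean of this difference moved by 1.30 on the log2 scale, so the ratio of the Gata6 signal to the Gata4 signal was 2.46 times that of sham hearts. Sham replicate 3 was the closest of its group to the tail-suspension arrays. This pair was picked after its values were seen, and it is given without a test.

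The slide had 2 rows of arrays, and the sham arrays shared the first with tail-suspension replicate 1, while the second held replicates 2 and 3 of tail-suspension. Within the first row, tail-suspension replicate 1 was below all 3 sham arrays for Gata4, by 0.31 from their mean, and above all 3 for Gata6 and Tbx5, by 0.65 and 0.50. With the slide row as a block, none of the 3 genes passed (limma adjusted p = 0.315 for Gata4, 0.183 for Gata6 and 0.203 for Tbx5). That fit takes the group difference from tail-suspension replicate 1 alone against the sham arrays.

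NKX2-5, TBX5 and TBX20 act together with GATA4 on cardiac promoters, with TBX5 known as an activator and TBX20 as a factor that can also repress. The Tbx5 probe lies on the plus strand at chr5:120334087-120334146 of mm9, and its first 30 bases are shown because it carries the second rise among the 10 factors.
Tbx5 probe A_52_P523712: aaatacctacctccgtcatgtgagatgtct
Tbx5 intensities were 1963, 1735 and 1490 in sham and 2630, 2848 and 3388 in tail-suspension. All 3 tail-suspension arrays were above all 3 sham arrays. The Tbx5 level rose from 2.45 ± 0.15 (SD, n = 3) to 3.01 ± 0.14 (SD, n = 3), a log2 fold change of 0.56 (standard error 0.12, limma adjusted p = 0.0240).

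Nkx2-5 intensities were 5958, 5618 and 4585 in sham and 6144, 6291 and 6825 in tail-suspension. After scaling, the groups overlapped, with levels of 4.09 ± 0.15 and 4.14 ± 0.07 (SD, n = 3 each). The log2 fold change of Nkx2-5 was 0.05 with a 95% interval from -0.20 to 0.30 (limma adjusted p = 0.757).

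Tbx20 was read by 3 probes, none of which passed. The brightest, A_52_P429876, had intensities of 1124, 1264 and 1060 in sham and 1191, 1267 and 1305 in tail-suspension, and the scaled levels overlapped. Its log2 fold change was -0.08 (95% interval -0.29 to 0.13, limma adjusted p = 0.529). The other probes gave 0.05 (95% interval -0.38 to 0.49) and -0.11 (95% interval -0.38 to 0.16), with intensities from 52.5 to 84.4 over the 6 arrays. The Tbx5 level minus the Tbx20 level moved from 0.58 ± 0.19 to 1.23 ± 0.13 (SD, n = 3 each) with no overlap, a pair chosen after its values were seen and not tested.

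**Figure D2:**
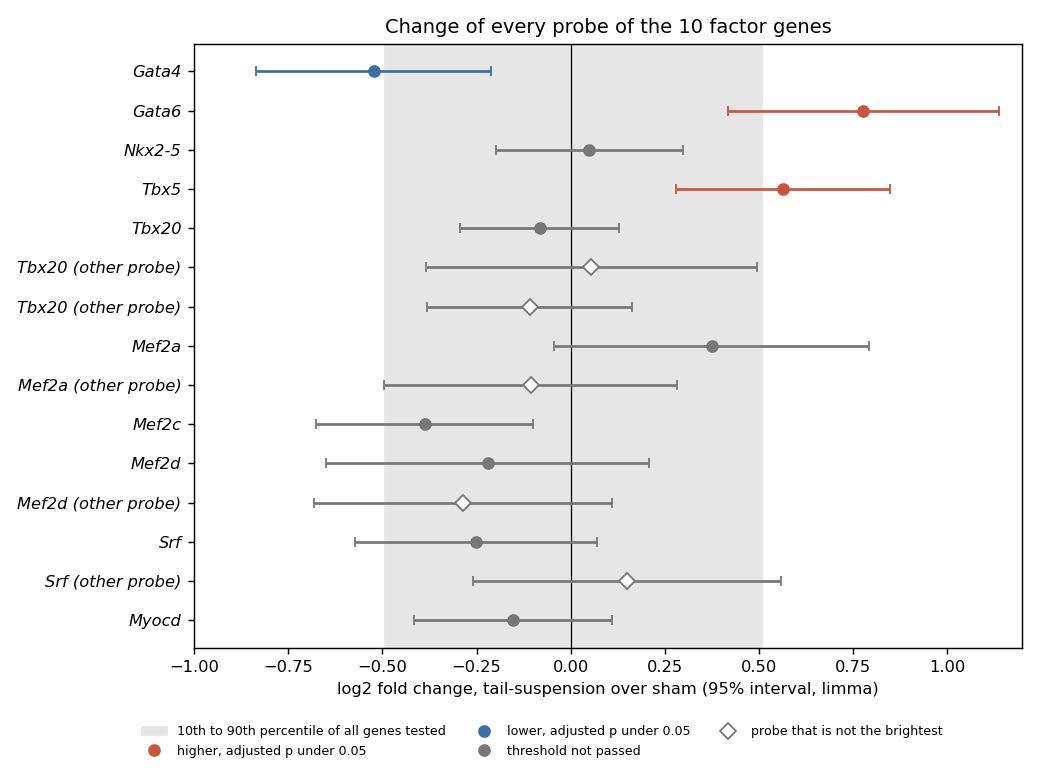
Log2 fold change of tail-suspension over sham for all 15 probes of the 10 factor genes (x axis), with 95% intervals from limma; circles are the brightest probe of a gene, open diamonds its other probes, and the grey band spans the 10th to 90th percentile of all genes tested (-0.49 to 0.51). Gata4 lies at -0.52, Tbx5 at 0.56 and Gata6 at 0.78, just outside or beyond the band, and the other 12 probes lie inside it.

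The MEF2 proteins bind a shared AT-rich site and are held inactive by class IIa histone deacetylases. MEF2A is known for its role in the postnatal heart, MEF2C for looping and ventricle formation in the embryo, and MEF2D for remodelling under load. None of the 3 genes passed the threshold. Mef2c came closest, with intensities of 275, 315 and 267 in sham and 266, 264 and 228 in tail-suspension. Its scaled levels did not overlap, at -0.14 ± 0.11 in sham and -0.53 ± 0.18 in tail-suspension (SD, n = 3 each). The log2 fold change was -0.39 (standard error 0.12, limma adjusted p = 0.0652), and it did not pass in 19 of 21 alternatives in processing, with the slide row as a block at -0.21 (limma adjusted p = 0.466). It passed when arrays were weighted (limma adjusted p = 0.0454) and by the methods' t-test without adjustment.

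The Mef2c probe spans 2238 bases of mm9 at chr13:83772788-83775025 on the plus strand, more than its 60 bases, as for a probe that joins exons. The Mef2d probe A_51_P504672, on the plus strand at chr3:87972214-87972560, spans 347 bases in the same way. Both are shown whole because they are the probes whose listed span exceeds their length.
Mef2c probe A_55_P2155620: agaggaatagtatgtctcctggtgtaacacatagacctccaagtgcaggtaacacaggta
Mef2d probe A_51_P504672: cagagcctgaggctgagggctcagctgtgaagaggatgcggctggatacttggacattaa
Mef2d had intensities of 342, 352 and 244 in sham and 256, 361 and 272 in tail-suspension by this probe, and the groups overlapped. Its log2 fold change was -0.29 (95% interval -0.68 to 0.11), and that of the brighter Mef2d probe was -0.22 (95% interval -0.65 to 0.21, limma adjusted p = 0.407).

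Mef2a was the single MEF2 gene with a positive value by its brightest probe. That probe, A_55_P1985159, had intensities of 493, 384 and 413 in sham and 601, 536 and 819 in tail-suspension. The scaled levels overlapped, since tail-suspension replicate 2 at 0.51 was below sham replicate 1 at 0.61. The Mef2a log2 fold change was 0.37 (95% interval -0.04 to 0.79, limma adjusted p = 0.168). A dimmer Mef2a probe, A_65_P08239, gave -0.11 (95% interval -0.50 to 0.28), so the probes of Mef2a do not settle a direction.

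SRF binds the CArG box of muscle genes and of growth-response genes, and myocardin, the product of Myocd, is its muscle cofactor. Srf intensities were 4450, 4837 and 3555 in sham and 4353, 3788 and 4264 in tail-suspension by its brightest probe, A_51_P100289, and the groups overlapped. The deposited coordinates of this probe span only 8 bases for a length of 60, so its position is not given. The log2 fold change was -0.25 (95% interval -0.57 to 0.07, limma adjusted p = 0.219). The other Srf probe gave 0.15 (95% interval -0.26 to 0.56), with the sign turned, so no direction can be given for Srf. Myocd intensities were 2396, 2833 and 2783 in sham and 2739, 2836 and 2744 in tail-suspension. The Myocd levels overlapped, and the log2 fold change was -0.15 (95% interval -0.42 to 0.11, limma adjusted p = 0.348).

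The Srf gene is known as a target of its own protein, and its promoter is shown for that reason. RefSeq sequences of 250 bases before to 50 bases after the gene start, on build GRCm38.p6, held 8 entries for 6 of the 10 genes. Gata4, Gata6, Tbx5 and Myocd had no entry, so the promoters of the called factors were not searched. The 250 bases before the Srf start, at chr17:46556163-46556412 on the minus strand of GRCm38.p6, are printed with the CArG boxes in capitals.
Srf promoter: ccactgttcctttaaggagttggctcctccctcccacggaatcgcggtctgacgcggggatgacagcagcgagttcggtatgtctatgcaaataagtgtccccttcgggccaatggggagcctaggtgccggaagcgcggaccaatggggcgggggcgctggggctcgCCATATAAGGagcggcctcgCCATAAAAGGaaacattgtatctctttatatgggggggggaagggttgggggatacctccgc
The CArG box was searched on both strands as CC, then 6 bases that are each A or T, then GG. It was found in 1.47% of the 32851 RefSeq promoters of the same length, and Srf held 2 copies, CCATATAAGG and CCATAAAAGG, which end 72 and 52 bases before the start. None of the 8 promoters held the GATA motif AGATAA, found in 9.99% of all promoters, the NKX2-5 motif TNAAGTG, found in 10.1%, or the T-box motif AGGTGTGA, found in 1.12%. The MEF2 site, found in 2.92%, was in none of the 8 either. A motif match is a description of letters and does not show binding.

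Genes of proteins that bind, control or resemble the 10 factors were taken as a list of 28. Of the 25 that were tested, 2 rose, 4 fell and 19 did not pass the threshold, with a median log2 fold change of -0.06. These are 8% higher and 16% lower, against 10.6% and 10.5% over all genes tested. Among the genes with no probe bright enough to be tested were Hand1 and Isl1, factors of the embryonic heart. Among the genes that rose was Klf15, a repressor of MEF2 and GATA4 activity. Klf15 intensities were 555, 341 and 568 in sham and 930, 1145 and 1122 in tail-suspension, with no overlap. The log2 fold change was 0.95 (standard error 0.21, limma adjusted p = 0.0288). Mef2b, the remaining MEF2 gene, rose by 0.74 (standard error 0.10, limma adjusted p = 0.00654), with intensities of 36.1 to 43.9 in sham and 74.2 to 79.9 in tail-suspension. Over the alternatives in processing the Mef2b log2 fold change ran from 0.24 to 0.82. Another Mef2b probe was not well above background on any array and was not tested. Mef2b kept its call whichever single array was left out, and Klf15 passed only without sham replicate 2 or sham replicate 3 (limma adjusted p up to 0.0869 without the others).

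The 4 genes that fell were Hdac9, Hopx, Gata5 and Irx4. Hdac9, a class IIa histone deacetylase that binds MEF2, had intensities of 669, 798 and 556 in sham and 402, 553 and 393 in tail-suspension. Its log2 fold change was -0.80 (standard error 0.17, limma adjusted p = 0.0231). Hopx, a homeodomain-only protein that restrains SRF, changed by -0.66 on each of its 2 probes (limma adjusted p = 0.0137 and 0.0181). Gata5, a GATA factor of the endocardium, changed by -0.51 and Irx4, a ventricular homeobox factor, by -0.44 (limma adjusted p = 0.0290 and 0.0473). The other class IIa genes in the list, Hdac4, Hdac5 and Hdac7, had log2 fold changes of -0.08, 0.11 and 0.01 and did not pass. The GATA cofactors Zfpm1 and Zfpm2 had -0.28 and -0.04 and did not pass. Hopx lost its call without sham replicate 2 (limma adjusted p = 0.0536). Hdac9 and Gata5 lost theirs without sham replicate 1, sham replicate 2, tail-suspension replicate 1 or tail-suspension replicate 3 (up to 0.0790 and 0.0890), and Irx4 kept its call only without tail-suspension replicate 1 (otherwise up to 0.149).

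Of 26 cardiomyocyte genes known as targets of these factors, all were tested, 3 rose, 2 fell and 21 did not pass, with a median log2 fold change of -0.04. These are 11.5% higher and 7.69% lower, close to the 10.6% and 10.5% over all genes tested. Myh7, the slow myosin heavy chain, had intensities of 37055, 124674 and 81419 in sham and 339524, 396767 and 390821 in tail-suspension. The tail-suspension arrays lay close together and the sham arrays spread widely, and the log2 fold change was 2.17 (standard error 0.41, limma adjusted p = 0.0181). Ankrd1, a stretch-responsive sarcomeric protein, rose by 0.97 (standard error 0.13, limma adjusted p = 0.00779). Corin, the protease that activates the atrial natriuretic peptide, rose by 0.89 (standard error 0.11, limma adjusted p = 0.00545). Ankrd1 and Corin kept their calls whichever single array was left out, and Myh7 lost its call without tail-suspension replicate 3 (limma adjusted p = 0.0611).

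Gja1, which encodes connexin 43 of the gap junctions, changed by -0.77 (standard error 0.10, limma adjusted p = 0.00670). Actc1, cardiac alpha-actin, changed by -0.33 (standard error 0.08, limma adjusted p = 0.0364). Leaving out any 1 of the 6 arrays kept the Gja1 call and ended the Actc1 call (limma adjusted p = 0.0606 to 0.121). The natriuretic peptide genes, which GATA4 and SRF are known to activate, did not pass the threshold. Nppa intensities were 31435, 63834 and 45951 in sham and 184658, 66435 and 238159 in tail-suspension, and the scaled levels overlapped, with a log2 fold change of 1.45 (standard error 0.51, limma adjusted p = 0.0893). Nppb had a log2 fold change of 0.74 (standard error 0.50, limma adjusted p = 0.322).

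Myh6, the main myosin heavy chain of the adult mouse heart, gave different answers by probe. The brightest, A_55_P2173952, had intensities of 257369, 239228 and 201768 in sham and 211886, 290795 and 258600 in tail-suspension, which overlapped, with a log2 fold change of -0.09 (limma adjusted p = 0.603). The dimmer A_55_P2140453 had 13164, 11373 and 13578 in sham and 5102, 7294 and 3949 in tail-suspension, with a log2 fold change of -1.47 (standard error 0.23, limma adjusted p = 0.00978). Myh6 and Myh7 are near-identical over much of their length, and binding of the transcript of one to a probe of the other was not tested. The probes also differed for Atp2a2, the calcium pump of the sarcoplasmic reticulum, and for Smyd1, a methyltransferase of heart muscle in the list of partners. Both are counted as not passing by their brightest probe (-0.29 each, limma adjusted p = 0.0599 and 0.218), while their dimmer probes were lower (-0.64 and -0.66, limma adjusted p = 0.0373 and 0.00895).

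SRF has separate sets of targets with separate cofactors. Beside the counts of these sets, 10.6% of all genes tested passed as higher and 10.5% as lower. Of those 17140 genes, 8281 had positive values, and their median log2 fold change was -0.01. Of the 15 tested genes of the myocardin set, which holds smooth muscle and cytoskeletal genes, none rose, 2 fell and 13 did not pass, although 10 of the 15 had positive values and the median log2 fold change was 0.22. The genes that fell were Smtn, which binds actin in contractile smooth muscle, by 0.56 on its brightest probe and 0.81 on its other probe (limma adjusted p = 0.0215 and 0.00791), and Fhl2, a LIM protein of heart muscle, by 0.58 (limma adjusted p = 0.0360). Of the 8 tested genes of the immediate-early set, which responds through ELK cofactors and includes Srf itself, Junb rose by 1.11 (standard error 0.28, limma adjusted p = 0.0359) and Egr1 fell by 0.82 (standard error 0.17, limma adjusted p = 0.0224). Junb intensities were 40.9, 50.2 and 52.9 in sham and 76.4, 179 and 125 in tail-suspension. Egr1 intensities were 1111, 1334 and 1094 in sham and 900, 789 and 650 in tail-suspension, so these immediate-early genes moved apart on the same arrays. Smtn, Fhl2, Junb and Egr1 kept their calls only without tail-suspension replicate 1 or 2, with adjusted p up to 0.0774, 0.112, 0.106 and 0.0838 without one of the other arrays. With the slide row as a block none of the genes called in these 4 lists passed by its brightest probe, and the smallest adjusted p was 0.0614, of Mef2b.

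**Figure D3:**
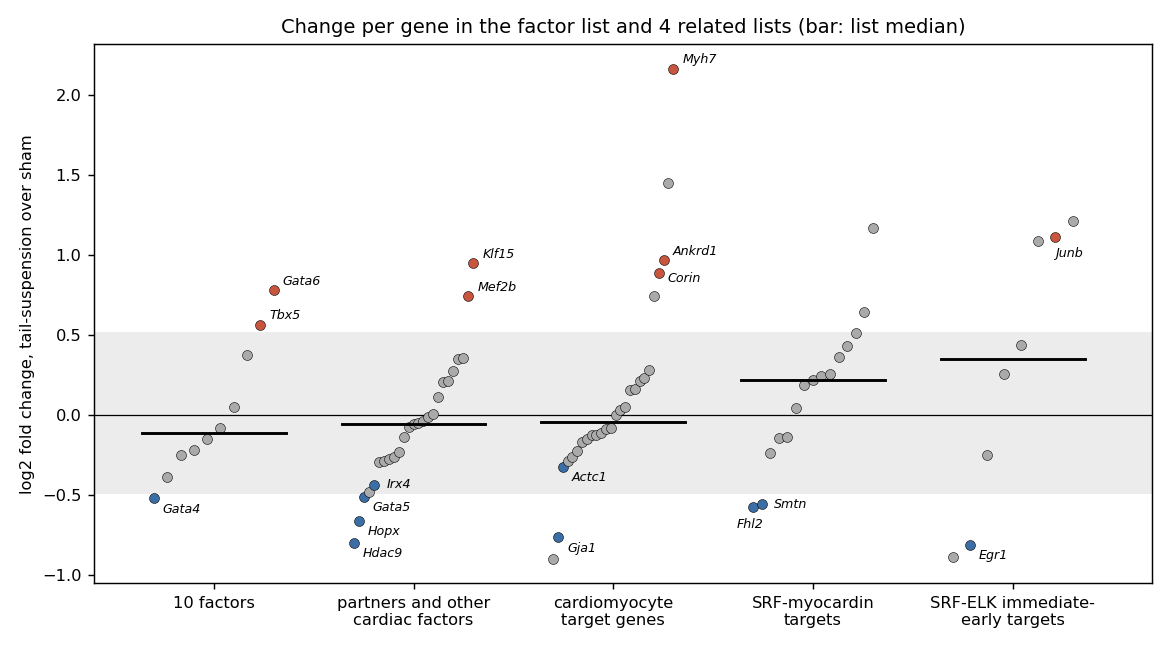
Log2 fold change of tail-suspension over sham (y axis) for each tested gene of the factor list and of 4 related lists; red and blue points passed the adjusted threshold as higher and lower, grey points did not, bars are list medians and the grey band spans the 10th to 90th percentile of all genes tested. Each list holds genes on both sides of 0, and its median lies inside the band, between -0.12 and 0.35.

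The 8 cardiomyocyte markers, most of which are also among the target genes above, were well above background on all 6 arrays, as the labelled tissue requires. Of them 1 fell (Actc1) and none rose, and their mean level per array ran from 8.36 to 8.45 in sham and from 8.28 to 8.33 in tail-suspension. Of 5 ventricular markers, 2 fell (Irx4 and Lbh), with mean levels of 5.79 to 5.91 in sham and 5.42 to 5.51 in tail-suspension. Beside these and the marker counts that follow, 10.6% of all genes tested passed as higher and 10.5% as lower. Of 4 tested atrial markers none passed, and their mean level ran from 1.78 to 2.29 in sham and from 1.95 to 2.80 in tail-suspension. The defining atrial genes Myl7 and Sln were well above background only on sham replicate 3, at intensities of 33.6 and 82.3, and on tail-suspension replicate 1, at 25.0 and 43.1. Bmp10, another atrial gene, was not well above background on any array.

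Without these 2 arrays, in a fit added after seeing the data, Gata6 was 0.99 higher (limma adjusted p = 0.0429), Gata4 had a log2 fold change of -0.69 (limma adjusted p = 0.0628) and Tbx5 of 0.52 (limma adjusted p = 0.107). In that fit the sham arrays lie in 1 slide row and the tail-suspension arrays in the other, so group and row cannot be told apart. Nppa and Dkk3, which are also atrial markers, were at their highest levels on tail-suspension replicate 3, which stays in the fit (9.31 and -0.12). In the comparison of all arrays, the atrial markers Nppa, Dkk3 and Stard10 had positive log2 fold changes (1.45, 0.75 and 0.16). The atrial marker Myl4 had a negative one (-0.63), and none of these genes passed. The part of atrial tissue in the changes of the 3 genes was not tested.

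Among the other cell types, Gata4 and Gata6 are also known from endothelial, fibroblast and epicardial cells and Mef2c and Srf from vessel walls. Of 6 endothelial markers, 2 fell (Kdr and Tie1), with mean levels of 2.37 to 2.47 in sham and 2.10 to 2.30 in tail-suspension. Tie1 kept its call only without tail-suspension replicate 2 (otherwise limma adjusted p up to 0.133). Kdr lost its call without sham replicate 1 or 2 (up to 0.0656), and its other probe did not pass (-0.25, limma adjusted p = 0.0738). Of 8 fibroblast markers, 1 fell (Col3a1, lost without sham replicate 2 or tail-suspension replicate 1, limma adjusted p up to 0.0631), and the mean level ran from 2.96 to 3.28 in sham and from 2.30 to 2.97 in tail-suspension. Of 4 tested smooth muscle markers, which are all also in the myocardin set above, none passed (2.16 to 2.85 in sham and 2.76 to 3.33 in tail-suspension). Wt1 was the single epicardial marker of 5 that could be tested, and it did not pass.

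Of the 4 neutrophil markers well above background on all 6 arrays, 2 were higher (S100a8 and S100a9), and the mean level of the 4 ran from 0.73 to 1.05 in sham and from 2.67 to 3.94 in tail-suspension. The other 2, Csf3r and Elane, did not pass, with log2 fold changes of 0.30 and -0.30 (limma adjusted p = 0.0929 and 0.0675). In sham the Csf3r level was 7.31, against -2.93 for S100a8, -0.78 for S100a9 and 0.02 for Elane. Csf3r thus raises the mean level of the 4 markers, and the source of its signal was not tested. The neutrophil genes Ltf and Mpo and the macrophage gene Cd163 entered the test only through the tail-suspension group, since no sham array had them well above background. They are therefore given as bounds, at least 6.26-fold, 2.20-fold and 3.39-fold higher. Their limma adjusted p (0.0130, 0.00290 and 0.0244) rest on sham signals that were not above background, so they are not read as support. Ltf lost its call without sham replicate 2 (limma adjusted p = 0.0540), and Cd163 without tail-suspension replicate 1 or 3 (up to 0.0796). Of the 4 other macrophage markers, all above background throughout, none passed (mean levels of 1.80 to 2.16 in sham and 2.04 to 2.72 in tail-suspension). Of 5 such erythroid markers none passed (4.13 to 4.99 in sham and 2.52 to 3.99 in tail-suspension). Hba-a1, Hbb-b1, Hbb-b2 and Alas2 had log2 fold changes of -1.50, -1.54, -1.72 and -1.62 (limma adjusted p = 0.0511 to 0.0625). The remaining erythroid marker of these, Slc4a1, had -0.19 (limma adjusted p = 0.676). The part of these cell types in the changes of Gata4, Gata6 and Tbx5 was not tested.

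Over the 6 arrays, the gene whose level correlated best with Gata4 was Hif1a (Pearson r = 0.999), followed by Zfp872 and Hspa12a (r = 0.998 and 0.996). For Gata6 these were Ankzf1, Ctps2 and Armcx5 (r = 0.998, 0.997 and 0.995), and for Tbx5 they were Tctn2, Ppt2 and Sik3 (r = 0.998, 0.998 and 0.997). These are the highest of 17140 genes over only 6 arrays that fall into 2 groups, so they describe a shared ordering of the arrays and carry no p.

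**Figure D4:**
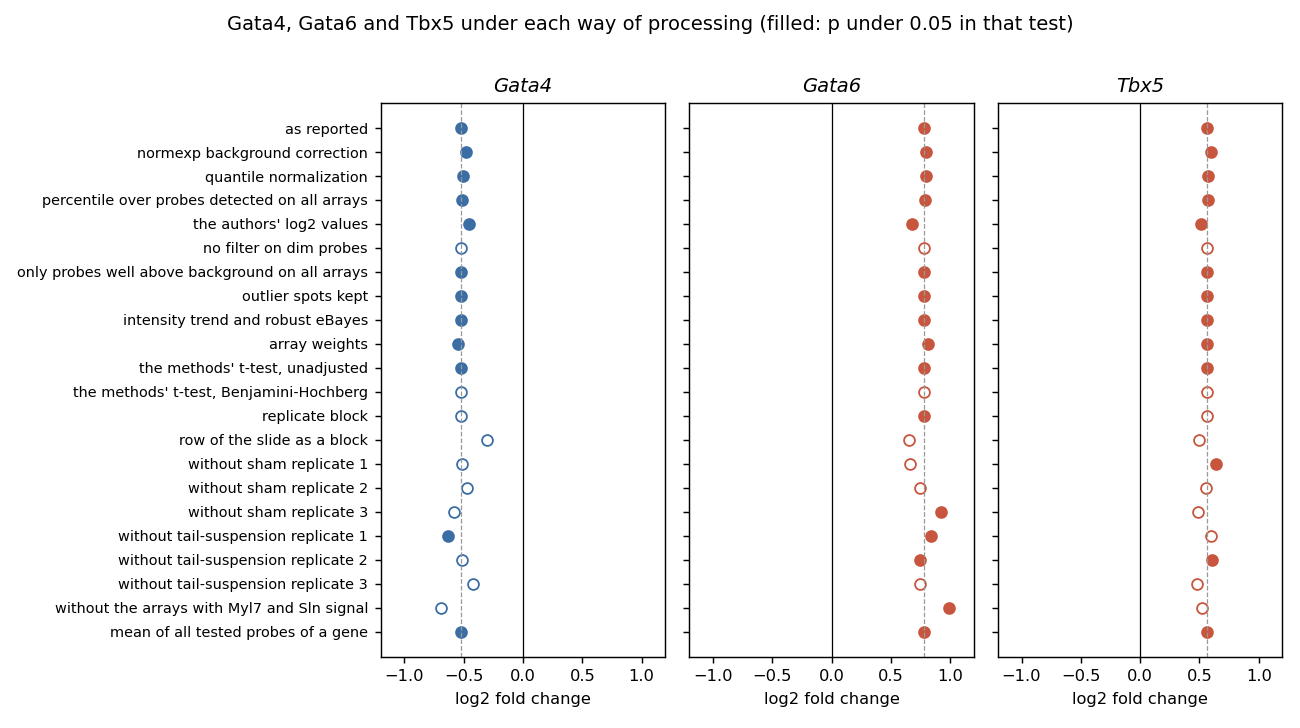
Log2 fold change of Gata4, Gata6 and Tbx5 (x axis) as reported and under the 21 alternatives in processing (y axis); filled points have a p below the threshold in that test, open points do not, and the dashed line is the reported value. No point crosses 0, but Gata4 is open in 10 of the alternatives, Gata6 in 6 and Tbx5 in 9. Several of the alternatives could not turn a sign.

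The direction of the 3 changes was the same under all 21 alternatives tried, and the calls were not. Several alternatives leave the fold change as it is, so the sign could not turn there. Nor could it turn where arrays were left out, since the groups did not overlap for these 3 genes. Gata4 passed in 11 of the 21, with log2 fold changes from -0.69 to -0.31. Leaving out single arrays, Gata4 passed only without tail-suspension replicate 1 (limma adjusted p = 0.0360), a fit in which group and slide row cannot be told apart, and otherwise gave adjusted p from 0.0551 (without sham replicate 3) to 0.124 (without sham replicate 2). Gata6 passed in 15, with values from 0.65 to 0.99, and was lost without sham replicate 1, sham replicate 2 or tail-suspension replicate 3 (limma adjusted p = 0.0542, 0.0755 and 0.0681). Tbx5 passed in 12, with values from 0.48 to 0.64, and was kept without sham replicate 1 or tail-suspension replicate 2 (limma adjusted p = 0.0409 and 0.0327). Without sham replicate 2, sham replicate 3, tail-suspension replicate 1 or tail-suspension replicate 3, the Tbx5 adjusted p ran from 0.0547 to 0.0857.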

How the data were processed

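RNA of 3 sham and 3 tail-suspension samples of mouse heart was measured on 1-colour Agilent arrays. Per the labels, the authors extracted the spots with Agilent Feature Extraction 10.7.1.1, and the deposited scanner files give each spot's processed intensity after background correction, its mean intensity and its local background intensity. A further deposited table holds log2 values of these arrays, and on every array they had a correlation over 0.999 with the log2 scanner values. Its scale and normalization are not stated. Its columns had medians of 4.33, and sorted columns differed by at most 0.098, as after quantile normalization.

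Log2 processed intensities minus the 75th percentile of the non-control spots of each array were taken in R 4.3.3. Controls and between 146 and 212 outlier spots per array were left out, and no spot was saturated. Spots of 1 probe were averaged. A probe was tested where it was well above background, on at least 50% of its spots, on every array of at least 1 group. Both groups entered limma 3.58.1 (lmFit, eBayes, no covariates), with Benjamini-Hochberg adjustment over 28032 probes. Precision is limited by having 3 arrays per group.

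The members and all gene lists were chosen with earlier results of these data known, and the lists are given as counts and medians without a set test. Named were all 10 factors, list genes past the threshold (at most 6 in each direction per list), Nppa, Nppb, Myh6 and Myh7, the 3 genes most correlated with each called factor, and the defining cell type markers. Hdac4, Hdac5, Hdac7, Zfpm1, Zfpm2, Atp2a2, Smyd1, Dkk3, Csf3r, Elane and the genes without a testable probe were named after their values were seen. So were the atrial genes Myl4 and Stard10 and the erythroid genes Hba-a1, Hbb-b1, Hbb-b2, Alas2 and Slc4a1. A gene not above background in 1 group is given as a bound, the mean of the bright group over that of the dim group, where each dim array was set to no less than its lowest flagged signal.

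The alternatives changed the background correction (normexp, offset 50), the scaling (quantile, or the percentile of detected probes), the input (the log2 table), the filter (none, or stricter), outlier flags (ignored), the eBayes step (trend and robust), array weights, the test (the methods' t-test, with and without adjustment), a block for the replicate number or for the slide row, and the probe of a gene (mean of all). Each array was left out in turn. A fit without the arrays carrying Myl7 and Sln signal was chosen after seeing the data. Scripts were tested on simulated data before use. Gene names are those of the array design and coordinates of probes are on mm9 per the file headers. The lymphocyte markers are not reported here.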

Additional observations from a re-analysis of the deposited data

How the results depend on the processing

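With the main settings, 3005 probes were higher and 2671 lower, and 2 and 1 of the factor genes. Normexp correction, quantile normalization, the percentile over detected probes, the authors' log2 values, the stricter filter, outlier spots kept, the intensity trend and the mean of a gene's probes changed none of the calls of the 10 genes. Each probe of the 10 genes had a single spot, so keeping outlier spots could not change its level. Gata4, Gata6 and Tbx5 each had a single probe, so the mean of a gene's probes could not change their levels. With no filter on dim probes 1024 probes were higher and 770 lower and with the adjusted t-test of the methods 1531 and 1247, and under both 0 factor genes passed in either direction. At the unadjusted threshold of the methods' t-test, 4809 probes were higher and 4692 lower, and 2 factor genes were lower, Mef2c being added. Array weights gave 4332 lower probes and 2 lower factor genes. With the slide row as a block, 312 probes were higher, 172 lower, and 0 factor genes passed. Without the arrays with Myl7 and Sln signal, 548 were higher, 391 lower, and 1 factor gene passed as higher and 0 as lower.

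Replicate numbers did not pair the arrays. The correlations of same-numbered deviations from the group means were -0.02, -0.02 and 0.05, and 1 of 3 sham arrays correlated best with its own number. With the replicate block, 1672 probes were higher and 1359 lower, and 1 factor gene was higher (Gata6) and 0 lower.

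Leaving out 1 array at a time gave 951 to 2920 higher and 710 to 2565 lower probes, 0 to 2 higher factor genes and 0 to 1 lower. Signs turned for these uncalled values. Nkx2-5 ran from -0.0325 (without sham replicate 3) to 0.1089 with single arrays left out and was -0.0486 without the arrays with Myl7 and Sln signal. The dimmer Mef2a probe ran from -0.2813 to 0.0334 (without sham replicate 3) and was 0.0124 with array weights and 0.009 without the Myl7 and Sln arrays. The dimmer Srf probe was -0.0479 without those arrays. Of the dimmer Tbx20 probes, A_55_P1976310 ran from -0.1508 (without sham replicate 1) to 0.1589, with -0.0039 without tail-suspension replicate 1, and was -0.0662 with normexp and -0.0023 with quantile normalization, and A_55_P2162503 was 0.0467 with the slide row as a block. The cause of these shifts was not tested, except that leaving out arrays leaves fewer of them and no filter tests more probes. The median log2 fold change of all probes stayed within 0.1 of 0 under every scaling, from -0.06 to 0.0025.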

Other observations

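Of the 26 called genes in the lists of partners, targets and cell type markers, the neutrophil genes S100a8 and S100a9, which encode the calgranulins, passed under every one of their 20 alternatives. The other 24 lost their call under at least 1. Among the 26 are genes above background in only 1 group, such as Ltf, Mpo and Cd163. Corin and Gja1 passed under 19 of 20, Ankrd1 and Lbh under 18, Mef2b under 17, Hopx under 16 and Myh7 under 15, and no gene of the 26 changed sign. Several alternatives leave a fold change as it is, so the sign could not turn there. With the slide row as a block, S100a8 and S100a9 passed (limma adjusted p = 0.0146 and 0.0139).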
